A study of Mus musculus with 6 samples.

Results

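The core circadian clock genes were examined in bulk RNA-seq of inguinal white adipose tissue (iWAT), the subcutaneous fat pad of the mouse groin. The set held 10 genes chosen by name: *Arntl*, *Clock*, *Per1*, *Per2*, *Per3*, *Cry1*, *Cry2*, *Nr1d1*, *Nr1d2* and *Dbp*. Of the 37024 rows of the count table, those carrying one of these symbols were taken, and the row with the highest total stood for a symbol. A row was found for 9 of the 10 genes, counts were found for 7, and all 7 were among the 9872 rows that passed the filter on low counts. *Nr1d1* had no row in the data analysed here. *Arntl* and *Clock* were listed at 0 in all 6 libraries.

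The study deleted the long noncoding RNA *Lexis* from fat and asked how gene expression in iWAT differed from that of littermates. There were 3 libraries labelled *Lexis*-AdKO, from *Lexis* fl/fl mice carrying Adipoq-cre, and 3 labelled *Lexis*-AdWT, from Cre-negative *Lexis* fl/fl littermates. All mice were on a C57BL/6 background, had eaten a Western diet for 12 weeks and lived under alternating light and dark. Adipoq-cre acts in adipocytes, so other cells of the fat pad kept the allele, and in bulk tissue fewer cells of a type and less RNA per cell cannot be told apart. The sources used here tie no age, sex or hour of collection to the mice of these libraries. The 3 libraries of a label were described as biological replicates, and *p* values measure the spread among them.

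Libraries held between 14470542 and 17882713 counts, and 17470 rows were at 0 throughout. A count of 0 allows up to 3 counts in a library, which was between 0.168 and 0.207 CPM (counts scaled to a common library size) and covers counting error only. The targeted gene was read from the row of *4930412L05Rik*, the long noncoding RNA that begins 45171 bases past *Abca1* on chromosome 4 of mm9, where RefSeq places *Lexis1* at 44942 bases on its own build. Under the label AdWT it had 8, 9 and 8 counts, and under AdKO 21, 11 and 13 (log2 fold change 0.87, SE 0.381, adjusted *p* = 0.851 by edgeR). This row was not lower under the label AdKO. Its groups did not overlap, with AdKO higher, as for 6.16% of rows tested. Whether the row covers the deleted part was not tested, so every direction given for the clock genes rests on the labels. The leptin gene *Lep*, an adipocyte marker, had 6829, 6756 and 8806 CPM under AdKO and 8918, 10070 and 11880 CPM under AdWT, and the groups did not overlap, as for 5.72% of rows tested with AdKO lower (log2 fold change -0.46, SE 0.161, adjusted *p* = 0.851 by edgeR). The markers of adipocytes were high in all libraries, at a summed 41320 to 41970 CPM under AdKO and 46130 to 54560 CPM under AdWT. Some libraries stood apart from the rest, AdWT replicate 2 in skeletal muscle markers and both libraries numbered 3 in epithelial markers, as described with *Dbp*.

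The mammalian clock is a feedback loop of transcription. The activators BMAL1, the product of *Arntl*, and CLOCK bind E-box sequences and switch on the *Per* and *Cry* genes, whose proteins return to the nucleus and repress their own activators. The nuclear receptors REV-ERBα and REV-ERBβ, from *Nr1d1* and *Nr1d2*, are driven by the same activators and repress *Arntl* through ROR response elements, while *Dbp* encodes a transcription factor that carries the rhythm to output genes through D-box sequences. In fat, as in liver, transcripts of *Dbp*, the *Per* genes and the *Nr1d* genes run nearly opposite in the day to those of *Arntl* and its relative *Npas2*, so that a single sample carries a trace of the hour at which it was taken.

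Promoters were searched for clock motifs, and 4 of them are shown because the values below turn on these genes: *Dbp* and *Nr1d2*, which differed most between the labels among genes with high counts; *Per1*, with an E-box and a D-box in one window; and *Arntl*, the activator that carried no count. Each holds 250 bases before and 50 after a RefSeq start in GRCm38.p6, written 5′ to 3′ on the strand of the gene, with the letters of any motif found in capitals.
*Dbp*, chr7:45704997-45705296, plus strand: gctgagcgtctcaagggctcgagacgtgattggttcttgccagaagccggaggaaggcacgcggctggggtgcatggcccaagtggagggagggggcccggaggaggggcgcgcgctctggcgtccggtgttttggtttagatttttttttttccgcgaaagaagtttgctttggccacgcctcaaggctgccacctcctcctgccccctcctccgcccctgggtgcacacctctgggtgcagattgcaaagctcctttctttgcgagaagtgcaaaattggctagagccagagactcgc
*Nr1d2*, chr14:18239057-18239356, minus strand: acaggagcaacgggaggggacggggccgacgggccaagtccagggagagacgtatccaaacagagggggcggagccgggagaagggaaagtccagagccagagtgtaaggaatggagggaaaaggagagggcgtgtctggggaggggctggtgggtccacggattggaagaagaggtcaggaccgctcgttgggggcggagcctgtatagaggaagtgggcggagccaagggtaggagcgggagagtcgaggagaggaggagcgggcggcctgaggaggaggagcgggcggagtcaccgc
*Per1*, chr11:69098699-69098998, plus strand: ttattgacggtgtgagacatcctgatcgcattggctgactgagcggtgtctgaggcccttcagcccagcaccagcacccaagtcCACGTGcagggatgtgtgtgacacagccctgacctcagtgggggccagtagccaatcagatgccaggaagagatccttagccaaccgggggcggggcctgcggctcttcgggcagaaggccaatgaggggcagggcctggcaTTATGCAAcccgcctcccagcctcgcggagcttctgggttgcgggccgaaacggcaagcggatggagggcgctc
*Arntl*, chr7:113207261-113207560, plus strand: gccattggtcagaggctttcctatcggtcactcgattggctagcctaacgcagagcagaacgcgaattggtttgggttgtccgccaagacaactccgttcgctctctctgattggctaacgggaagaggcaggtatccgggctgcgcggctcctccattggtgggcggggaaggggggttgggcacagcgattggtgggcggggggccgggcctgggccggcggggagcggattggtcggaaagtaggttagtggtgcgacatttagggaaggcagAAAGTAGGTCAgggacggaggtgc

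The search covered both strands for the E-box CACGTG, the E-prime box CACGTT, the D-box TTATGNAA, the cyclic AMP element TGACGTCA and the ROR response element, and no motif searched overlapped another in the windows shown. Of the 10 genes, 9 had a promoter in the table, with *Per2* absent. The *Per1* promoter shown held an E-box at -166 and a D-box at -24 from the start, and the *Arntl* promoter shown held a ROR response element at 26 bases past it. *Per1* and *Arntl* each have 2 promoters in the table, and none of these motifs was found in the one not printed. Of the promoters not printed, *Per3* held 2 D-boxes, *Cry1* held an E-box and an E-prime box, and *Cry2* and *Nr1d1* each held an E-prime box. No motif was found in these windows for *Dbp*, *Nr1d2* or *Clock*, which says only that these letters are absent there. Among the 32851 promoters of the table, 7.15% held an E-box, 4.68% an E-prime box, 3.38% a D-box, 1.79% a cyclic AMP element and 0.384% a ROR response element.

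The clock genes measured in iWAT were mostly a little higher in the libraries labelled AdKO, and none passed the test. Of the 7 genes tested, 6 had a log2 fold change above 0 and 1 below, where 51.7% of all 9872 rows tested were above 0. *Per1*, *Cry1* and *Cry2* lay within 1 SE of 0, and genes of one feedback loop are not separate observations. Their median log2 fold change was 0.31, the value of *Nr1d2*, against 0.0071 over all rows tested. It was lower with any library left out, at 0.156 without AdWT replicate 1, 0.166 without AdKO replicate 1 and at most 0.272 (without AdKO replicate 3). At an adjusted *p* under 0.05 by edgeR's quasi-likelihood test (Benjamini-Hochberg over all rows), 0 of the 7 were called, as were 0 of all rows (0%), while DESeq2 called 27 rows, 0.392% of those it tested, none of them a core clock gene, with *Per2* and *Per3* left without an adjusted *p* by DESeq2. At an unadjusted *p* under 0.05, 1 of the 7 passed, *Nr1d2*, against 566 rows in all (5.73%), of which those higher under AdKO made up 2.76% of the rows tested and those lower 2.98%. The groups did not overlap for 1 of the 7 genes, again *Nr1d2*, while 11.9% of all rows had groups that did not overlap and 6.16% did so with AdKO higher.

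**Figure D1:**
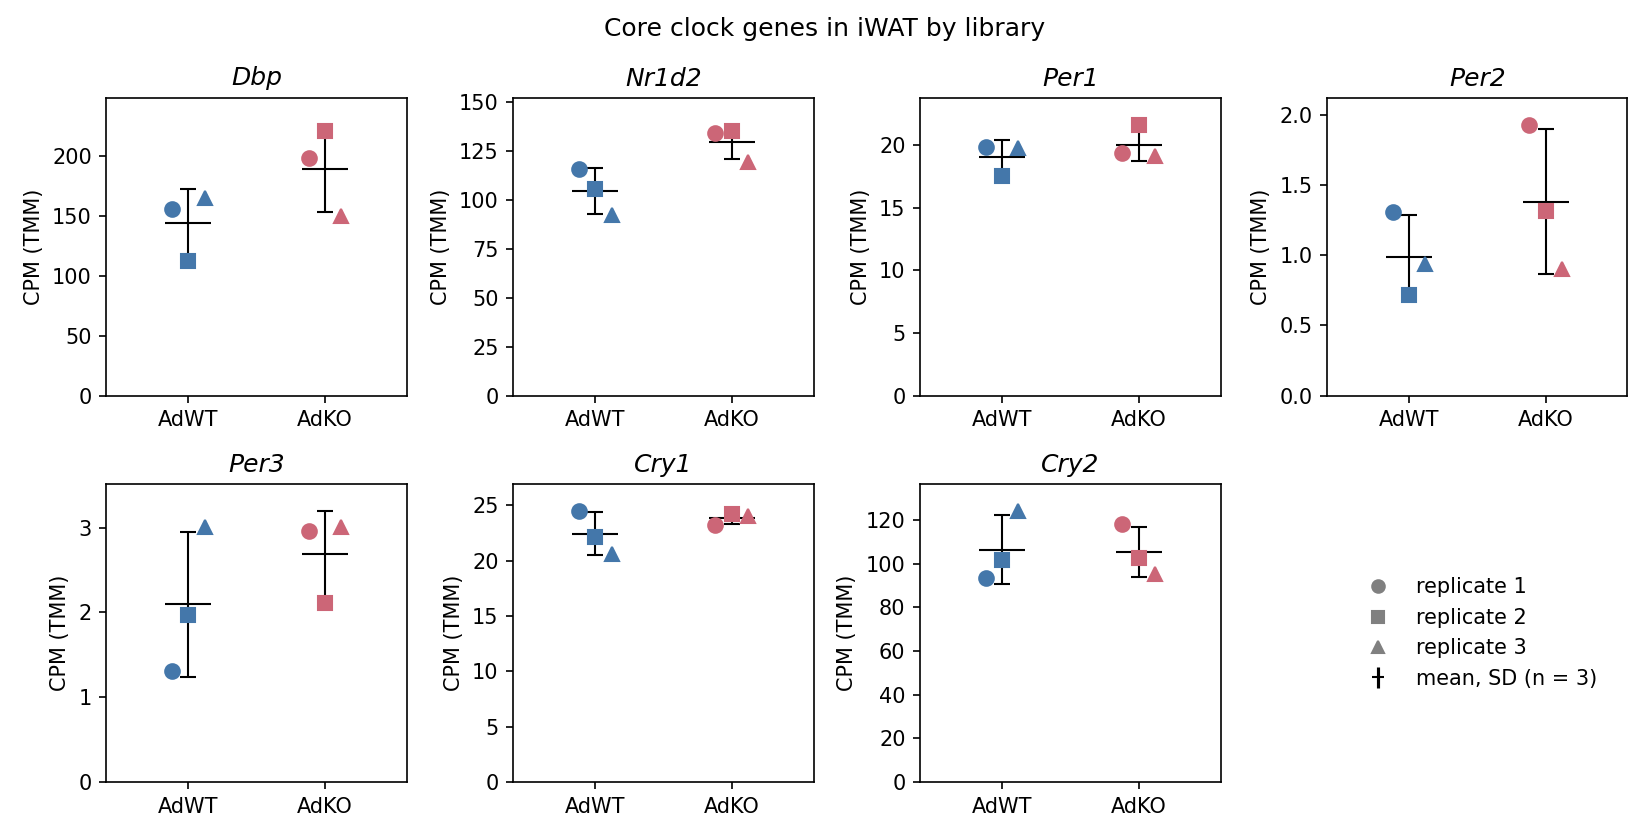
CPM after TMM scaling (y axis, from 0) of the 7 clock genes with counts in each of the 6 libraries, by label (x axis), with marker shape for replicate number and bars for the mean and SD (n = 3). *Nr1d2* is the gene whose groups do not overlap, with AdKO at 119.8 CPM or more and AdWT at 116.1 CPM or less.

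In the positive limb of the loop, *Arntl* and *Clock* could not be measured. *Arntl*, on chromosome 7 of mm9 from 120350979 to 120457636 (plus strand), had 2 rows and *Clock*, on chromosome 5 from 76639992 to 76733817 (minus strand), had 1 row, all at 0 in every library. At this depth a 0 allows at most 3 counts per library, but the tool that counted the reads is not given in the sources used here, and genes abundant in every fat pad were also near 0, such as the endothelial receptor gene *Kdr*, with at most 2 counts a library beside 11798 to 17664 counts of the endothelial cadherin gene *Cdh5*. The zeros of *Arntl* and *Clock* are therefore given as listed and not as absence of the transcript. The planned comparison of *Dbp* and the *Per* genes with *Arntl* had no values to use.

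*Npas2*, which encodes a partner of BMAL1 that can stand in for CLOCK, was the one activator with counts. It had 58, 33 and 18 counts under AdWT and 21, 27 and 62 under AdKO. The highest and lowest libraries of AdWT had exact Poisson intervals (95%, counting error only) of 44.04 to 74.98 and 10.67 to 28.45, and those of AdKO had 47.54 to 79.48 and 13 to 32.1. The libraries within each label thus differed by more than counting error, while the groups overlapped. The log2 fold change was 0.00 (SE 0.494, adjusted *p* = 0.999 by edgeR), which fell to -0.52 without AdKO replicate 3 and became 0.54 without AdWT replicate 1.

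In the negative limb, no *Per* or *Cry* gene passed the test, and the groups overlapped for each. *Per1*, an early repressor that is also induced by hormones and light, lies on chromosome 11 from 68908719 to 68923462 (plus strand) and had 303, 293 and 296 counts under AdWT and 282, 328 and 319 under AdKO. In CPM these were 19.83, 17.52 and 19.81 against 19.39, 21.61 and 19.17, so the lowest library was AdWT replicate 2 and the highest was AdKO replicate 2. The log2 fold change was 0.07 (SE 0.109, 95% interval -0.18 to 0.33, adjusted *p* = 0.906 by edgeR) and ranged from 0.011 to 0.107 with a library left out, lowest without AdKO replicate 2 and 0.012 without AdWT replicate 2. Its coefficient of variation over the 6 libraries was 6.738% of CPM, close to the 5.74% that counting alone gives.

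*Per2*, a period gene needed for a stable rhythm, lies on chromosome 1 from 93312561 to 93355907 (minus strand) and had few counts. There were 20, 12 and 14 under AdWT and 28, 20 and 15 under AdKO, with means of 0.988 ± 0.299 and 1.38 ± 0.515 CPM (SD, n = 3). The groups overlapped, with a log2 fold change of 0.48 (SE 0.373, 95% interval -0.40 to 1.35, adjusted *p* = 0.859 by edgeR). *Per3*, a period gene that is not needed for rhythm in mice, lies on chromosome 4 from 150377761 to 150418774 (minus strand) and had 20, 33 and 45 counts against 43, 32 and 50. Its groups overlapped too, with a log2 fold change of 0.36 (SE 0.324, 95% interval -0.40 to 1.12, adjusted *p* = 0.885 by edgeR). At these counts, counting alone gives a coefficient of variation of 23.46% for *Per2* and 16.4% for *Per3*, and the observed values were 36.63% and 29.58%. The intervals of both genes hold changes of more than 1 on the log2 scale as well as none. With a library left out, *Per2* ranged from 0.166 (AdKO replicate 1) to 0.732 (AdWT replicate 1) and *Per3* from 0.115 (AdWT replicate 1) to 0.697 (AdWT replicate 3).

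*Cry1*, the cryptochrome whose transcript peaks late, lies on chromosome 10 from 84594447 to 84647799 (minus strand) and was the steadiest of the 7 genes. Its level was 24.47, 22.18 and 20.61 CPM under AdWT and 23.24, 24.24 and 24.04 CPM under AdKO, a coefficient of variation of 6.449% where counting gives 5.272%. The log2 fold change was 0.09 (SE 0.101, 95% interval -0.15 to 0.32, adjusted *p* = 0.885 by edgeR) and ranged from 0.023 (AdWT replicate 3 left out) to 0.156 (AdWT replicate 1 left out). *Cry2*, its less rhythmic relative, lies on chromosome 2 from 92243803 to 92274200 (minus strand) and had 93.37, 101.7 and 124.1 CPM under AdWT and 118.1, 102.5 and 95.54 CPM under AdKO. The groups overlapped throughout, with a log2 fold change of -0.01 (SE 0.126, 95% interval -0.31 to 0.28, adjusted *p* = 0.986 by edgeR) that turned to 0.03 when libraries were scaled by size only. Its exons share 295 bases (4.67%) with *D930015M05Rik* on the other strand.

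The REV-ERB arm was represented by *Nr1d2* alone, on chromosome 14 from 19036568 to 19071641 (minus strand). *Nr1d2* had 116.1, 105.5 and 92.61 CPM under AdWT and 134.3, 135.2 and 119.8 CPM under AdKO. All 3 AdKO libraries lay above all 3 AdWT libraries, with means of 104.7 ± 11.75 and 129.8 ± 8.65 CPM (SD, n = 3). The log2 fold change was 0.31 (SE 0.0986, 95% interval 0.08 to 0.54), a fold of 1.239. Its unadjusted *p* was 0.0153 and its adjusted *p* 0.851 by edgeR over all rows, and the two-sided exact permutation test gave *p* = 0.1, the smallest that 3 against 3 allows. The unadjusted *p* was 0.0532 without AdKO replicate 1 and 0.0556 without AdKO replicate 2. Of its 2 rows, the one used held 98.9% of the counts. The repressor *Nr1d1*, which lies on chromosome 11 from 98629246 to 98636647, shares 263 exon bases (8.42%) with *Thra* on the other strand, and *Thra* was listed at 0 in all 6 libraries.

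*Dbp*, among the most rhythmic transcripts of many tissues, lies on chromosome 7 from 52960458 to 52965525 (plus strand) and had a larger spread than the other core genes with over 100 counts in every library. Its level was 155.7, 112.5 and 165.2 CPM under AdWT and 198.1, 221.1 and 149.9 CPM under AdKO. AdKO replicates 1 and 2 were above every AdWT library, AdKO replicate 3 was below AdWT replicates 1 and 3, and AdWT replicate 2 was the lowest of all. The highest library had 1.965 times the level of the lowest, and the coefficient of variation over the 6 libraries was 22.85%, where counting gives 1.97%. The means were 144.5 ± 28.08 and 189.7 ± 36.33 CPM (SD, n = 3), a log2 fold change of 0.39 (SE 0.182, 95% interval -0.03 to 0.82, adjusted *p* = 0.851 by edgeR; exact permutation *p* = 0.3). Its unadjusted *p* was 0.0658 by edgeR and 0.0452 by DESeq2. Leaving out AdWT replicate 2 gave 0.24 (unadjusted *p* = 0.204 by edgeR) and leaving out AdKO replicate 2 gave 0.26 (0.219), while leaving out AdWT replicate 3 gave 0.49 (0.0395) and leaving out AdKO replicate 3 gave 0.54 (0.0167). *Dbp* shares 491 exon bases (16.7% of its exons) with *Sphk2* on the other strand, whose row had 25 to 50 counts a library. Libraries came from a stranded kit, and the strand setting of the counting is not given in the sources used here.

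**Figure D2:**
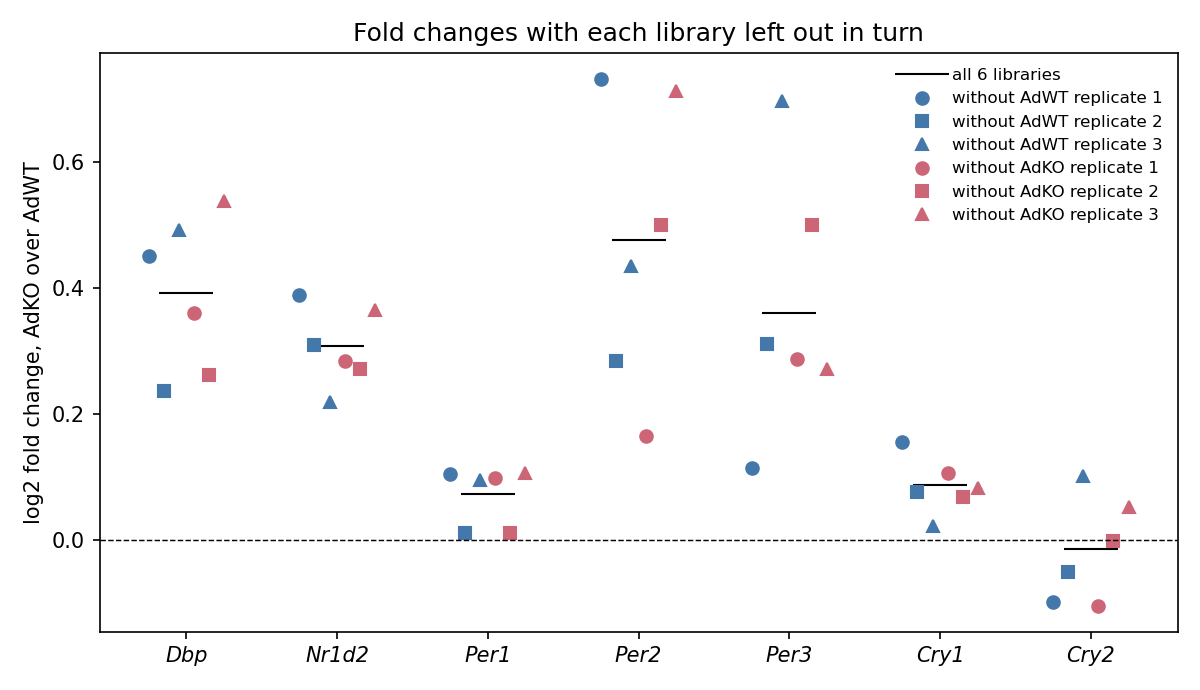
log2 fold change of each clock gene (y axis, AdKO over AdWT, edgeR) with all 6 libraries (line) and with each library left out in turn (points, colour and shape by the library left out). *Dbp* ranges from 0.24 to 0.54 and *Nr1d2* from 0.22 to 0.39, both above 0 in every case, while *Cry2* falls on both sides of 0.

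AdWT replicate 2, the library lowest in *Dbp*, stood apart in markers of skeletal muscle. Of the 10 muscle markers, 8 had a row, and their summed level was 172.6 CPM in that library, 45.48 and 33.19 CPM in the other AdWT libraries and 18.57 to 20.21 CPM under AdKO. Of the 6 muscle markers tested, 5 separated the labels with AdKO lower, as 5.72% of all rows did. The groups overlapped for *Myl1*, with a log2 fold change of -0.20. Among the 5, *Ckm*, the muscle creatine kinase gene, had 87, 576 and 29 counts under AdWT and 0 in every library under AdKO. The summed adipocyte markers did not overlap between labels either, with 5 of 6 markers present, of which *Fabp4* and *Lep* separated the labels with AdKO lower (5.72% of all rows) while *Adipoq*, *Plin1* and *Pparg* overlapped. The macrophage markers, of which 4 of 6 had a row with *Emr1* at 0 throughout, summed to 140.2 to 358.4 CPM under AdWT and 272.2 to 357.7 CPM under AdKO. The epithelial markers, 5 of 6 with a row, were high in AdWT replicate 3 (20.27 CPM) and AdKO replicate 3 (47.95 CPM), the library lowest in *Dbp* among those labelled AdKO, and were 0.8937 to 1.439 CPM elsewhere. The lymph node markers, 7 of 8 with a row and *Cr2* at 0, ranged from 9.903 to 25.32 CPM with overlapping groups, as did the endothelial markers, 2 of 4 with a row, from 771.1 to 1156 CPM. The part of these cells in the values of *Dbp* and *Nr1d2* was not tested. Without AdWT replicate 2 the log2 fold change was 0.31 for *Nr1d2* and 0.24 for *Dbp*, with muscle markers still higher in the other AdWT libraries than under AdKO.

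Further genes of the clock did not pass the test either. From a list of 19 further clock genes, 15 had a row, *Rorb* was at 0 throughout, and 11 were tested. Of these, 6 were above 0 and 5 below (median log2 fold change 0.005), where 51.7% of all rows were above 0, and 0 passed at an unadjusted *p* under 0.05 (5.73% of all rows). For 0 of the 11 did the groups separate (11.9% of all rows).

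**Figure D3:**
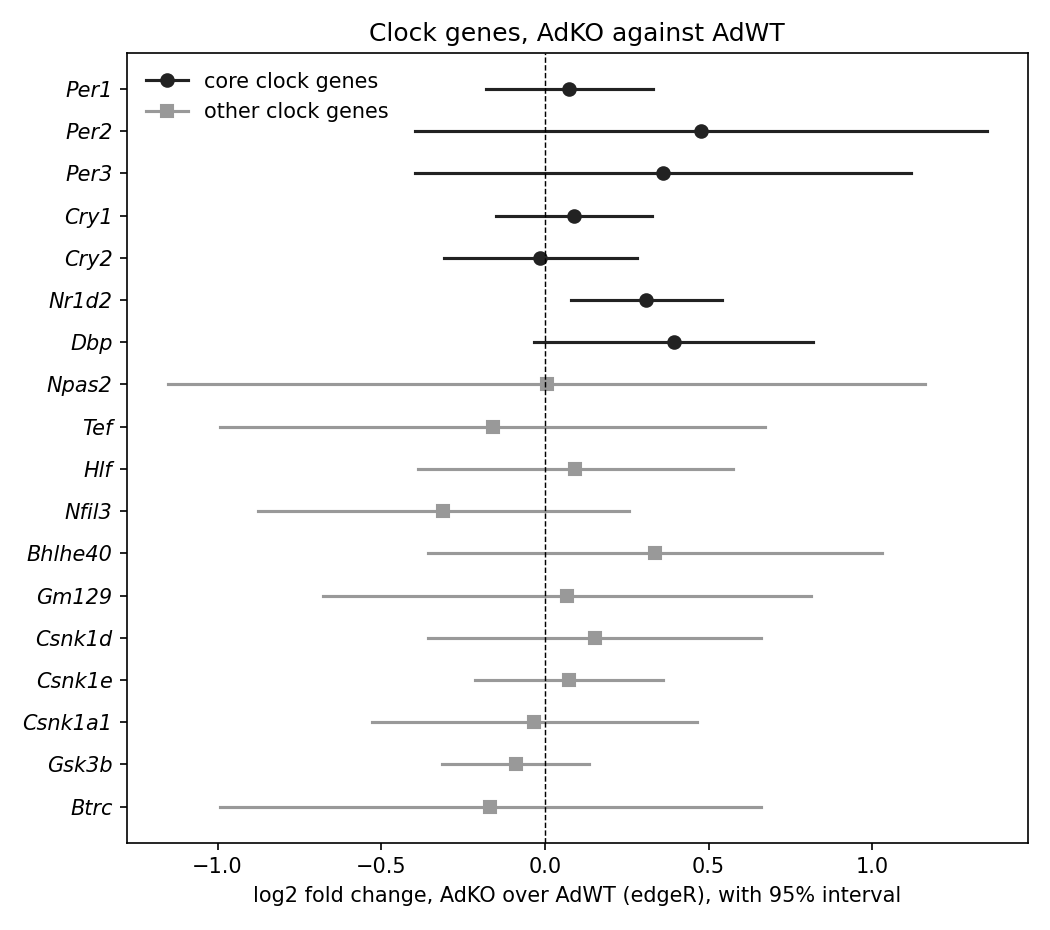
log2 fold change, AdKO over AdWT (x axis), with its 95% interval from edgeR for the 7 core clock genes (black circles) and the 11 other clock genes tested (grey squares). The interval of *Nr1d2*, 0.08 to 0.54, is the one that lies wholly on one side of 0.

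The relatives of *Dbp* in the PAR bZIP family, which bind the same D-box, showed no common direction. *Tef* had 339, 466 and 472 counts under AdWT and 449, 171 and 514 under AdKO, so that AdKO replicate 2 was low and the other libraries lay together. Its log2 fold change was -0.16 (SE 0.356, adjusted *p* = 0.941 by edgeR), and it turned to 0.18 without AdKO replicate 2. *Hlf* had a log2 fold change of 0.09 (SE 0.206), with 56, 82 and 84 counts against 78, 81 and 74. AdKO replicate 2, where *Tef* was lowest, was the library highest in *Dbp*.

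*Nfil3*, the repressor that competes with DBP at the D-box and peaks opposite to it, had 29, 49 and 31 counts under AdWT and 26, 32 and 28 under AdKO. The groups overlapped, with a log2 fold change of -0.31 (SE 0.242, adjusted *p* = 0.859 by edgeR) that was -0.10 without AdWT replicate 2. *Bhlhe40*, an E-box repressor that also responds to hypoxia and cytokines, had 984, 735 and 859 counts against 752, 1613 and 856. AdKO replicate 2 alone was high, and the log2 fold change of 0.34 (SE 0.296) became -0.11 without it. *Gm129*, an older symbol of the clock repressor gene *Ciart*, had 36, 22 and 28 counts against 27, 39 and 23 (log2 fold change 0.07, SE 0.319). The receptor gene *Rora*, whose product opposes the REV-ERBs at the *Arntl* promoter, had no row in the data analysed here, nor did *Arntl2*, *Bhlhe41* and *Fbxw11*.

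Kinases and ubiquitin ligases help to set the lifetime of PER and CRY proteins. *Csnk1e*, a casein kinase that phosphorylates PER, had a log2 fold change of 0.07, which turned to -0.03 without AdKO replicate 2. *Gsk3b*, with the most counts of this list, had -0.09 (0.01 without AdWT replicate 2), with 4119 to 5637 counts under AdWT and 4042 to 4760 under AdKO.

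Phase was compared within each library by setting *Dbp* against genes of another time of day. These pairs were chosen after the zeros of *Arntl* had been seen, and they are differences of log2 CPM given with no test. *Dbp* minus *Npas2* was 5.311, 5.744 and 6.955 under AdWT and 6.978, 6.858 and 5.283 under AdKO. AdWT replicate 3 lay with AdKO replicates 1 and 2 at the high end, and AdKO replicate 3 lay with AdWT replicates 1 and 2 at the low end. The means were 6.003 and 6.373 and the groups overlapped.

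*Dbp* minus *Nfil3* was 6.265, 5.203 and 6.23 under AdWT and 6.693, 6.628 and 6.372 under AdKO. The groups did not overlap, where 11.9% of single rows tested had groups that did not, and AdWT replicate 2 was far below the rest. *Nfil3* had 26 to 49 counts a library, where counting alone gives a coefficient of variation of 17.54%. The gap between labels, from 6.265 to 6.372, lies within that counting error. The difference between the means was 0.665 on the log2 scale with all libraries and 0.317 without AdWT replicate 2. *Dbp* minus *Cry1* was 2.663, 2.336 and 2.995 against 3.084, 3.183 and 2.635, with groups that overlapped. The difference between means was 0.303, and it was 0.138 without AdWT replicate 2, 0.195 without AdKO replicate 2, 0.468 without AdWT replicate 3 and 0.469 without AdKO replicate 3. The 3 pairs did not place the libraries in one order. AdWT replicate 2 was the lowest for *Nfil3* and *Cry1*, and AdKO replicate 3 was the lowest for *Npas2*.

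**Figure D4:**
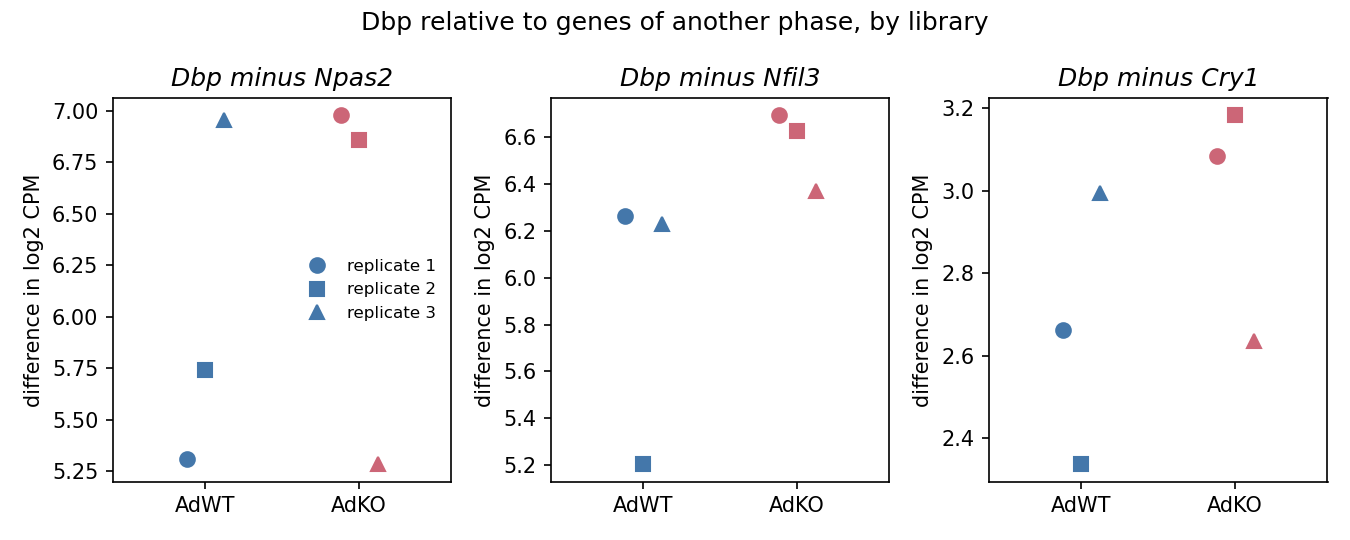
Difference in log2 CPM (y axis, not from 0) between *Dbp* and *Npas2*, *Nfil3* and *Cry1* in each of the 6 libraries, by label (x axis) and replicate number (marker shape). The labels separate for *Nfil3*, with AdWT at 6.265 or less and AdKO at 6.372 or more, and overlap for *Npas2* and *Cry1*. The gap for *Nfil3* lies within the counting error of its 26 to 49 counts a library.

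The other clock genes were then followed against *Dbp* across the 6 libraries, on log2 CPM, as a description of libraries that share depth and scaling. *Per1* went with *Dbp* at a Pearson *r* of 0.888 (exact permutation *p* = 0.0361, adjusted over 6 relations 0.188) and a Spearman rho of 0.771 (exact permutation *p* = 0.103, adjusted 0.308). An *r* at least as high as that of *Per1* was found for 1.27% of all rows tested, as that of *Per2* for 4.14% and as that of *Nr1d2* for 11.4%, and for the other 3 genes the share was between 29.2% and 35.7%. Without the libraries farthest from the median of *Dbp*, AdWT replicate 2 and AdKO replicate 2, the *r* of *Per1* was -0.07, so the relation rests on those samples together, which are also the extremes of *Dbp*. Leaving out one of them gave an *r* of 0.711 (AdWT replicate 2) or 0.797 (AdKO replicate 2). *Per2* gave an *r* of 0.786 (exact permutation *p* = 0.0625, adjusted 0.188) and a rho of 0.886 (exact permutation *p* = 0.0333, adjusted 0.2), and its *r* without the same libraries was 0.831. *Per2* had 12 to 28 counts a library, and the spread of *Per1* was close to counting error. Counting error thus enters both relations, and an *r* over so few libraries is loosely fixed.

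*Nr1d2* gave an *r* of 0.611 with *Dbp* (exact permutation *p* = 0.185, adjusted 0.369) and a rho of 0.6 (exact permutation *p* = 0.242, adjusted 0.446), with an *r* of 0.411 without those libraries and 0.979 without AdWT replicate 3. As deviations from the means of their labels, the *r* was 0.888 for *Per1*, 0.702 for *Per2* and 0.206 for *Nr1d2*. For *Per3*, *Cry1* and *Cry2* the *r* with *Dbp* was 0.22, 0.3 and 0.316, each with an adjusted exact permutation *p* of 0.66. With a library left out it ranged from 0.068 to 0.383 for *Per3*, 0.069 to 0.554 for *Cry1* and 0.15 to 0.493 for *Cry2*. None of the 6 relations passed at an adjusted *p* under 0.05.

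The rows that followed *Dbp* most closely were sought among the 1182 rows with a mean count of at least 50 and an SD of log2 CPM of at least 0.3, with the core clock genes left out. The highest *r* over the 6 libraries belonged to *Rrnad1* (0.971), *Hoxa3* (0.955), *Socs1* (0.926), *Calhm2* (0.918) and *Tmem81* (0.918). *Hoxa3*, a positional homeobox gene, had 14.26, 9.744 and 14.05 CPM under AdWT and 15.12, 20.88 and 12.8 CPM under AdKO. *Socs1*, an inhibitor of cytokine signalling, had 4.384, 3.228 and 4.015 CPM against 5.775, 6.85 and 3.425 CPM. The most opposite were *Chst13* (-0.967), *Ptger3* (-0.948), *Cep76* (-0.947), *Ifltd1* (-0.94) and *Plxna2* (-0.934). *Ptger3*, a prostaglandin E2 receptor gene, had 145.6, 211 and 124.1 CPM against 120.4, 93.07 and 128.6 CPM. These 10 are the extremes of a search over many rows with 6 points each.

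Genes that follow the clock or hormones of the day were read beside the clock genes. From 12 rhythmic output genes, 8 were tested, 6 above 0 and 2 below, and their median log2 fold change was 0.04, with 1 at an unadjusted *p* under 0.05, where 5.73% of all rows passed and 51.7% were above 0. That gene was *Tsc22d3*, which encodes the glucocorticoid-induced leucine zipper GILZ. It had 92, 99.65 and 114.2 CPM under AdWT and 79.88, 85.96 and 85.39 CPM under AdKO. All 3 AdKO libraries were below all AdWT libraries, as for 5.72% of rows tested (log2 fold change -0.28, SE 0.0926, unadjusted *p* = 0.0170 and adjusted *p* = 0.851 by edgeR). *Lonrf3* had a log2 fold change of 0.62, with 175, 133 and 77 counts against 143, 154 and 295, where AdKO replicate 3 alone was high. *Cdkn1a*, a cell cycle inhibitor gene, had a log2 fold change of 0.40, and *Wee1*, a cell cycle kinase gene under clock control, had 0.15, both with overlapping groups.

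Of 10 genes that respond to glucocorticoids, 8 were tested, 4 above 0 and 4 below, with a median of -0.046 and *Tsc22d3* again the 1 with an unadjusted *p* under 0.05 (5.73% of all rows). The metallothionein gene *Mt2* had 373, 370.7 and 401.9 CPM against 342.6, 552.7 and 682.6 CPM, a log2 fold change of 0.46 with overlapping groups (adjusted *p* = 0.851 by edgeR). *Pdk4* had a log2 fold change of -0.26 and *Zbtb16* of -0.28, both with overlapping groups.

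Immediate early genes, which answer to handling and dissection within minutes, were read because *Per1* is one of their kind. Of 9, 7 had a row, with *Fos* and *Junb* lacking one and *Atf3* at 0 throughout. There were 5 tested, 4 above 0 (51.7% of all rows) and 1 below. The level summed over the list was 381.3, 382 and 406.8 CPM under AdWT and 401.5, 313.9 and 335.8 CPM under AdKO. Most of that sum came from *Jun* in every library. The 1 below was *Jun*, with 262.3, 246.7 and 287.6 CPM against 226.7, 201.6 and 219.9 CPM and no overlap, where 5.72% of rows separated with AdKO lower and 2.98% were lower at an unadjusted *p* under 0.05 (log2 fold change -0.30, SE 0.0828, unadjusted *p* = 0.00803 and adjusted *p* = 0.847 by edgeR). *Egr1* was highest in AdKO replicate 1, at 99.89 CPM, and lay between 47.95 and 74.37 CPM in the other libraries.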

How the data were processed

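RNA of iWAT from 3 mice labelled *Lexis*-AdWT and 3 labelled *Lexis*-AdKO was measured by RNA-seq with a stranded kit. HISAT2 was the aligner of the authors, on mm9; they used DESeq2 for their own comparison and deposited raw counts per row, not normalized. The counting tool, its annotation and its strand setting are not given in the sources used here, and 8694 of 19509 symbols had more than 1 row, so counts of such genes may be low. The number of columns of no sample was 0.

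Counts were tested with edgeR 4.0.16 in R 4.3.3 (filterByExpr by group, TMM, glmQLFit and glmQLFTest), with Benjamini-Hochberg adjustment over the 9872 rows tested and a threshold of 0.05. SEs were taken as the log2 fold change over the root of the F statistic. edgeR's common biological coefficient of variation, 0.196, exceeds counting error for genes with high counts. Levels are CPM after TMM scaling, and log2 CPM used a prior count of 2. Single genes were also tested by a two-sided exact permutation test. The fits were first tested on simulated counts in which 200 genes had been changed.

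Alternatives were DESeq2 1.42.0, other scalings, filters and fits, the replicate number as a block, summed rows and each library left out. Relations with *Arntl* could not be run, and pairs with *Npas2*, *Nfil3* and *Cry1* and correlations with *Dbp* were chosen after seeing the data. The genes and lists were chosen with earlier results of these data known. Named genes were the 10 clock genes, the further clock genes, some of which are not reported here, at most 4 of each other list by smallest *p*, and the 5 rows most and least like *Dbp*. *Jun*, *Egr1*, *Csnk1e*, *Gsk3b*, *Kdr*, *Cdh5*, *Ckm*, *Myl1*, adipocyte markers and genes that overlap clock genes were named after their values were seen. Gene positions are from GENCODE vM1 on NCBIM37 (mm9) and promoters from RefSeq on GRCm38.p6. Figures used Python 3.11.15 with pandas 2.3.3, numpy 2.4.6 and matplotlib 3.10.9.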

Additional observations from a re-analysis of the deposited data

How the results depend on the processing

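Over 15 alternatives each, *Dbp*, *Nr1d2*, *Per1*, *Per2*, *Per3* and *Cry1* stayed above 0, and no core clock gene reached an adjusted *p* under 0.05 where one was given (DESeq2 gave none for *Per2* and *Per3*). DESeq2 called 27 rows after adjustment and a filter of 1 count in any library called 1, against 0, and both gave 2 core clock genes at an unadjusted *p* under 0.05, against 1. The cause was not tested. With each library left out, adjusted calls ranged from 0 to 1, unadjusted calls from 329 (AdWT replicate 2 left out) to 1208 (AdWT replicate 1 left out), core clock genes from 0 to 2 and their median from 0.156 to 0.272. *Npas2* was -0.014 with DESeq2, -0.007 with RLE and -0.008 with upper quartile scaling. *Cry2* was 0.034 and *Csnk1a1* 0.026 with library size only, and *Csnk1a1* 0.027 with rows summed. Leaving out 1 library gave ranges that crossed 0 for *Cry2* (-0.104 to 0.102), *Npas2* (-0.524 to 0.544), *Tef* (-0.37 to 0.176), *Hlf* (-0.059 to 0.225), *Bhlhe40* (-0.106 to 0.516), *Gm129* (-0.197 to 0.281), *Csnk1e* (-0.025 to 0.149), *Csnk1a1* (-0.178 to 0.136), *Gsk3b* (-0.145 to 0.012) and *Btrc* (-0.423 to 0.165). The *r* with *Dbp* turned to -0.072 for *Per1* and -0.215 for *Cry1* without the 2 farthest libraries, and to -0.124 for *Per3* and -0.052 for *Cry1* as deviations from label means. *Dbp* minus *Npas2* ranged from 0.024 to 0.914 with a library left out.

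Labels share replicate numbers but do not say that these pair mice, so the numbers were not taken as pairs. Same-numbered libraries correlated at -0.076, -0.132 and 0.33 in their deviations from label means, and the other pairings at -0.33 to 0.411. With 3 libraries a label, such values cannot show whether the numbers pair mice. With the replicate block, 418 rows passed at an unadjusted *p* under 0.05 against 566, 0 passed after adjustment, and the median of the core clock genes was 0.313. With 12 to 50 counts a library, counting alone gives coefficients of variation of 23.46% for *Per2* and 16.4% for *Per3*, below those observed.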
